A study of Homo sapiens with 2 samples.

Results

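The genes of the proteasome were the ones whose names start with PSMA, PSMB, PSMC, PSMD, PSME, PSMF or PSMG followed by a number and that have at least 1 curated messenger RNA record. This rule found 48 genes among the 26370 gene names listed, and 46 of them had a mean of at least 1 FPKM over the libraries. FPKM is the number of sequenced fragments divided by transcript length and by sequencing depth, so it is a level per length, and it was summed over the transcripts of each gene. The other members, PSMA8, the germ-cell form of an alpha subunit, and PSMB11, the catalytic subunit of thymic epithelium, were listed at 0 in both libraries. The rule uses names and not levels.

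RNA was sequenced from CHME3, an immortalised human line labelled as microglia and grown for 4 to 6 passages. One culture was untreated, and another received muscarinic receptor antagonists, which block a family of acetylcholine receptors, at 5 µg/ml, which is called the EC50 in the labels. The labels name neither the compound nor the time of exposure. Each condition has 1 library, so no difference has a replicate check, no p-value is given, and every interval compares these libraries and not the conditions.

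The proteasome is the main protease of the cytosol and nucleus. Its barrel-shaped core particle is made of outer alpha rings, which gate the entrance, and inner beta rings, which hold the catalytic sites. A regulatory particle caps the core, binds ubiquitin-tagged proteins, removes the tag, unfolds the chain and feeds it in, while other caps act without ubiquitin. Under interferon gamma, and constitutively in many immune cells, the catalytic subunits PSMB8, PSMB9 and PSMB10 can take the places of PSMB5, PSMB6 and PSMB7 in newly made cores. The resulting immunoproteasome shapes the peptides presented on major histocompatibility complex class I, and in the brain microglia are among the cells known to make it.

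Sequencing depth, estimated from the authors' bounds, was 6702732 fragments for untreated and 7295668 for treated cells, and each member above the floor had between 46 and 8723 fragments over both. Markers went against the label of the cells: 17 of 20 microglia and macrophage markers were under 1 FPKM in both libraries, 11 of them, among them CX3CR1, TMEM119, AIF1, ITGAM, PTPRC and TYROBP, were at 0 in both, and the list summed to 80.2 FPKM untreated and 71.5 treated. Of 15 fibroblast and mesenchymal markers 11 were over the floor, summing to 6067 and 6606 FPKM. RNA18S5, an 18S ribosomal RNA, was at 363 and 759 FPKM, and its part in the differences below was not tested.

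The upstream sequences of the 5 immunoproteasome and activator genes are shown because these are the members known to respond to interferon. They come from RefSeq (GRCh38.p14), which held a promoter entry for 42 of the 48 members. Entries for PSMA7, PSMB1, PSMB6, PSMB7, PSMD4 and PSMG3 were not used here. Each stretch is written 5′ to 3′ on the strand of its gene and leaves out exons of the deposited messenger RNA records. Exons of non-coding records were not looked for. Capitals mark a match, on either strand, to TTCNNNGAA, the gamma-activated site of interferon gamma signalling (PSMB8), or to TGACNNNGC, the core of the antioxidant response element (PSMB9, PSME1 and PSME2). The PSMB10 stretch holds no match to these patterns and has no capitals.
PSMB8, chr6:32844048-32844278, minus strand: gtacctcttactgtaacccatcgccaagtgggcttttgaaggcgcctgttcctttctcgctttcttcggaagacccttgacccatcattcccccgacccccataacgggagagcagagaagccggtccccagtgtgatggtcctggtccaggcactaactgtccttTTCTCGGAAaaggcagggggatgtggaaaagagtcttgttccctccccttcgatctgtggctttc
PSMB9, chr6:32853972-32854160, plus strand: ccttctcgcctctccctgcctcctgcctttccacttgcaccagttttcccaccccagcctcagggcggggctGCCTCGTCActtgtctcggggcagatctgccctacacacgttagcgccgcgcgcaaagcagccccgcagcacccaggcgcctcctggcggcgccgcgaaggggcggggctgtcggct
PSMB10, chr16:67936878-67937100, minus strand: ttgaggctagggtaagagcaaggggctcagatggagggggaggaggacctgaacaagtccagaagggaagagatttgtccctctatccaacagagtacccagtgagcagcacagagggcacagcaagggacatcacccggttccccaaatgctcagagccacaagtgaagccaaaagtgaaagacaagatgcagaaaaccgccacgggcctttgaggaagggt
PSME1, chr14:24135944-24136157, plus strand: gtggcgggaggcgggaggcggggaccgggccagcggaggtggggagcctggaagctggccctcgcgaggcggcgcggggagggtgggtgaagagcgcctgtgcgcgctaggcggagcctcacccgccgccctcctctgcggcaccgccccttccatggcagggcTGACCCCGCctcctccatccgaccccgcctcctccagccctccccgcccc
PSME2, chr14:24146647-24146860, minus strand: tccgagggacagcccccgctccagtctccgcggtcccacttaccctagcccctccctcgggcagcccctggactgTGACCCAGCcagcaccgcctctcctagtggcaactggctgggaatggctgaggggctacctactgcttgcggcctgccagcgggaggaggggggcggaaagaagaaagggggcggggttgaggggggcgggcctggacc

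The motifs were searched on both strands in the 250 bases before each annotated start, over 35116 windows of all genes and 51 windows of the 42 members. TTCNNNGAA was in 6.57% of all windows and in 7 member windows (13.7%), those of PSMA2, PSMA8, PSMB5, PSMB8, PSMC4, PSMD3 and PSME3. A repeat of GAAA after a gap of 2 bases of any kind, the core of the interferon-stimulated response element bound by interferon regulatory factors, was in 3.02% of all windows and in 5 member windows (9.80%), those of PSMA4, PSMB4, PSMB10, PSME2 and PSMG4. In PSMB10 and PSME2 the match read GAAAGCGAAA, lying 21 to 12 and 28 to 19 bases before the annotated start, outside the stretches printed above. TGACNNNGC was in 10.9% of all windows and 13 member windows (25.5%), and CCAAT, the box bound by NF-Y, in 32.0% and 19 (37.3%). In the 5 genes printed, matches of the first 3 patterns did not overlap each other. A match is a description of letters, and no binding was measured.

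As a whole, proteasome messenger RNA was close in abundance between the libraries. The 46 members summed to 3647 FPKM untreated and 3709 FPKM treated. In bulk RNA, fewer cells expressing a gene and less of its RNA per cell cannot be told apart. The log2 ratio (treated over untreated) was computed on FPKM + 1 throughout. Its median was 0.03 over the members and 0.00 over all 11668 genes above the floor. With depth-scaled fragments in place of FPKM, the median was -0.02 over the members and -0.016 over all genes. Of the members 25 lay above 0 and 21 below (54.3% above), against 50.7% of all genes. The quartiles of the members were -0.06 and 0.10, a width of 0.16, and those of all genes -0.10 and 0.11, a width of 0.20. Among genes with at least 200 fragments over both libraries, the width was 0.16 for the 43 members and 0.17 for all 8350 genes. Across the 46 members log2(FPKM + 1) in the libraries correlated with Pearson's r = 0.993 and Spearman's rho = 0.991, against 0.971 and 0.977 over all genes. The members' median level was 45.7 FPKM untreated against 10.5 over all genes, and these correlations were not matched for level. Their points are genes of the same libraries and not independent replicates.

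Members that differed by size were counted beside the share over all genes, and these small counts were not tested against it. At 1.2-fold or more on the log2(FPKM + 1) scale, 3 of the 46 members (PSMB8, PSMC2 and PSMG3) were higher in the treated library. The background was 8.10% of all genes. PSMB9 was lower, 1 of the 46, against 6.79%. PSMG3 was the 1 member past 1.5-fold in either direction (background 2.23%), and 0 members passed 2-fold (0.660%). PSMG3 passed narrowly, with a log2 ratio of 0.59. It was 0.47 with depth-scaled fragments and 0.51 with 5 added to FPKM in place of 1, both under 1.5-fold. Taking the 95% counting interval of each FPKM ratio, 7 of the 46 members lay above 1 (background 6.63%) and 2 below 1 (6.14%). In what follows, a pair of FPKM levels is given untreated first, and the ratio and this interval stand after it in parentheses. The authors' bounds of the most abundant transcript did not overlap for 2 members, PSMB8 and PSMC5, both higher in the treated library (background 3.93% higher and 3.70% lower). Among the 8350 genes with at least 200 fragments, a background added after the values were seen, 3.94% were 1.2-fold higher and 2.90% lower. Of the 43 members there, 3 were higher and 0 lower. The counting interval lay above 1 for 620 of the 8350 genes and below 1 for 607. For the 43 members these counts were 7 and 2.

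**Figure D1:**
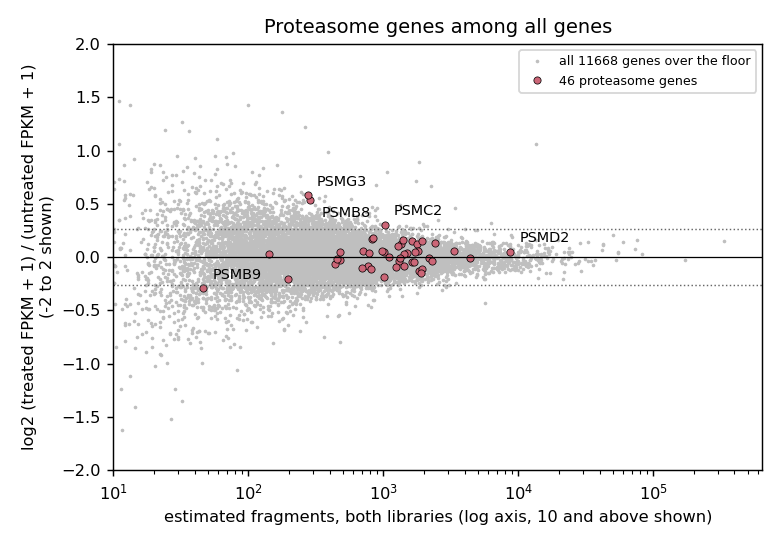
Log2 ratio of treated over untreated FPKM + 1 (vertical axis) against estimated fragments in both libraries together (horizontal log axis) for genes over the floor in grey (those within the range of both axes are shown) and the 46 proteasome genes in red, with dotted lines at 1.2-fold. PSMG3, PSMB8 and PSMC2 lie above the upper line, PSMB9, with 46 fragments, lies just below the lower one, and the other members lie between the lines.

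The 3 immunoproteasome catalytic subunits were below the median member, which was at 45.7 FPKM untreated and 48.7 treated, and they did not share a direction. Over all genes above the floor the median was 10.5 and 10.6 FPKM. PSMB8, which replaces the chymotrypsin-like subunit PSMB5, lies on chromosome 6 at 32840717 to 32844935 (hg38, minus strand). Its level was 16.8 FPKM untreated and 24.8 FPKM treated, resting on 116 and 172 fragments, and the FPKM ratio was 1.47 (95% counting interval 1.15 to 1.88). PSMB9, which replaces PSMB6, lies on the same chromosome at 32854161 to 32859851 on the plus strand. Its level was 4.27 and 3.32 FPKM, resting on 26 and 21 fragments, and with a ratio of 0.776 (0.410 to 1.42) a difference was not detectable at this depth. PSMB10, which replaces PSMB7, lies on chromosome 16 at 67934504 to 67936877. Its level was 12 and 12.3 FPKM, resting on 68 and 73 fragments, with a ratio of 1.02 (0.724 to 1.44). PSMB8 was thus higher in the treated library beyond counting error. PSMB9 and PSMB10, with fewer fragments, had intervals that reached up to 1.42 and 1.44, close to the PSMB8 ratio.

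Set against the constitutive subunits, the immunoproteasome subunits had lower FPKM in both libraries. The percentages below compare messenger RNA of different genes, and protein was not measured. PSMB8 stood at 14.4% of the FPKM of PSMB5 in the untreated library (95% counting interval 11.8 to 17.6) and at 20.4% in the treated library (17.3 to 24.1). PSMB9 stood at 2.47% of PSMB6 (1.63 to 3.71) and then 1.98% (1.23 to 3.07). PSMB10 stood at 7.03% of PSMB7 (5.38 to 8.93) and then 7.76% (5.99 to 9.79). The order PSMB8, PSMB10, PSMB9 held in both libraries, and the intervals of these 3 percentages did not overlap within either library. Between libraries the intervals overlapped for each pair, PSMB8 and PSMB5 by the least. Summed, the immunoproteasome subunits were at 33.1 against 461 FPKM untreated, 7.19% (6.23 to 8.29), and at 40.4 against 447 FPKM treated, 9.03% (7.93 to 10.2).

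**Figure D2:**
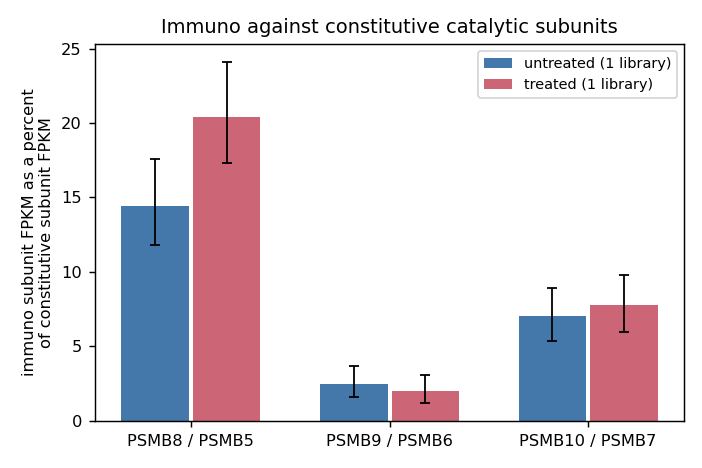
FPKM of each immunoproteasome catalytic subunit as a percent of the constitutive subunit it replaces (vertical axis) in the untreated (blue) and treated (red) library, 1 library each, with bars for the 95% counting interval. PSMB8 is at 14.4% and 20.4% of PSMB5, and the intervals of PSMB9 and PSMB10 end at or below 9.79% of their counterparts in both libraries.

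The constitutive catalytic subunits themselves were abundant and close in level between libraries. PSMB5, the chymotrypsin-like subunit, was at 116 and 121 FPKM (ratio 1.04, 0.949 to 1.14). PSMB6, the caspase-like subunit, was at 173 and 167 FPKM (ratio 0.966, 0.875 to 1.07), and PSMB7, the trypsin-like subunit, at 171 and 158 FPKM (ratio 0.924, 0.845 to 1.01). All 3 intervals included 1. Exons of PSMB7 share 389 bases, 38.3% of its exon length, with LOC100129034 on the other strand, at 16.1 and 19.5 FPKM, and since the labels do not state strand, reads from the shared stretch cannot be told apart.

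As the authors' software divided the fragments, 1 of the PSMB8 transcripts was higher in the treated library and the other was lower. The transcript starting at 32844039, of 1116 bases, was at 14.4 FPKM in the untreated library, with the authors' bounds of 11.2 and 17.6, and at 23.6 FPKM in the treated library, with bounds of 19.7 and 27.5. The longer transcript starting upstream at 32844935, of 1583 bases, was at 2.45 FPKM (1.28 to 3.62) and then 1.15 FPKM (0.355 to 1.95). The bounds of this longer transcript overlapped between libraries. The shorter form thus made up 85.4% of PSMB8 FPKM untreated and 95.3% treated. The PSMB8 sequence printed above lies just upstream of the start of the shorter form, between the starts of both. PSMB8 exons share 226 bases, 12.7% of their length, with the antisense gene PSMB8-AS1, which was at 0.136 FPKM in the untreated and 1.0 FPKM in the treated library, and its part in the PSMB8 value was not tested. PSMB8 also has 14 records and PSMB9 7 on alternate forms of chromosome 6, and all of these were listed at 0 in both libraries.

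PSME1 and PSME2, the PA28 alpha and beta subunits of a cap that opens the core to short peptides, were the most abundant of the 5 interferon-responsive members. PSME1 lies on chromosome 14 at 24136158 to 24138967 and was at 105 and 114 FPKM (ratio 1.08, 0.964 to 1.21). PSME2, on the opposite strand at 24143365 to 24146646, was at 85.9 and 97.5 FPKM (ratio 1.13, 0.988 to 1.30). Both values were higher in the treated library, and both intervals included 1. Over PSMB8, PSMB9, PSMB10, PSME1 and PSME2 the median log2 ratio was 0.11, with 4 above 0 and 1 below, and the 5 genes ranged from -0.29 to 0.53. With depth-scaled fragments the log2 ratio of PSMB10 was -0.02.

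The remaining caps and the inhibitor are not among the genes known for induction by interferon. PSME3, the nuclear PA28 gamma subunit, was at 29 and 32.5 FPKM (ratio 1.12, 1.01 to 1.25), and its interval just excluded 1. PSME4, the large single-chain activator of nuclei and spermatids, was at 15.0 and 14.1 FPKM (ratio 0.941, 0.847 to 1.05). PSMF1, an inhibitor of the core in vitro, was at 26.8 and 26.7 FPKM (0.995, 0.893 to 1.11).

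**Figure D3:**
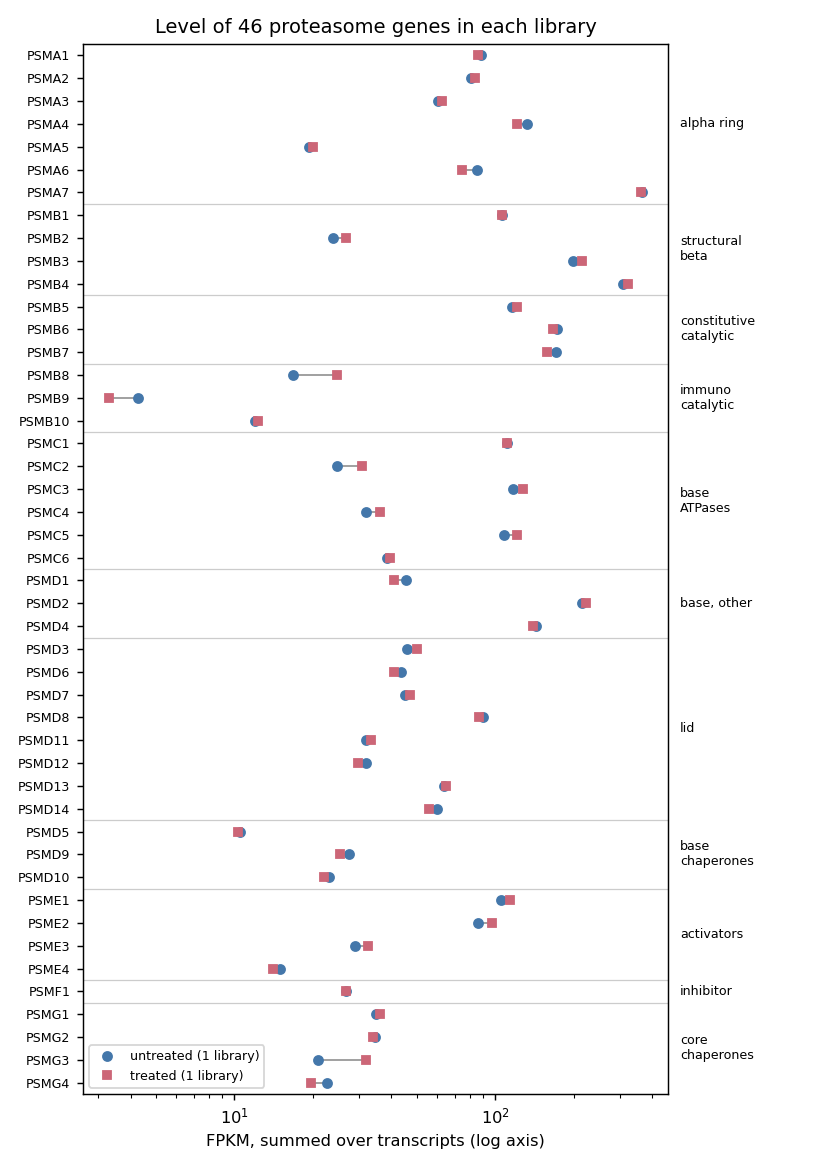
FPKM of each of the 46 proteasome genes (horizontal log axis), grouped by role, in the untreated library (blue circles) and the treated library (red squares), 1 library each. Most pairs nearly coincide, PSMA7 is at the top with 365 and 361 FPKM, and PSMB9 at the bottom with 4.27 and 3.32 FPKM.

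The alpha ring, which gates the core, gave 22.8% of all member FPKM untreated and 21.8% treated. PSMA7 was the most abundant member in both libraries at 365 and 361 FPKM (ratio 0.991, 0.933 to 1.05). PSMA5, in the same ring, was the lowest of the 7 at 19.4 and 20 FPKM, so subunits that enter the ring in equal number differed 18.9-fold and 18.0-fold in FPKM. PSMA6 was at 85.2 and 74.7 FPKM, resting on 523 and 484 fragments, and its ratio of 0.877 (0.774 to 0.994) was the lowest in the ring and the only one there with an interval below 1. PSMA4 was at 132 and 121 FPKM (0.915, 0.834 to 1.0). PSMA1 was at 88.6 and 86.2 FPKM (0.973), PSMA2 at 81.1 and 83.4 FPKM (1.03) and PSMA3 at 60.2 and 62.6 FPKM (1.04), with intervals that all included 1. Reference annotation names 4 pseudogene records after PSMA6 and 3 after PSMA2, none of which the files list, and their part in these values was not tested.

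The structural beta subunits, which complete the inner rings without catalytic activity, gave 17.5% and 18.1% of member FPKM. PSMB4 was the second most abundant member at 310.5 and 322 FPKM (ratio 1.04, 0.969 to 1.11). PSMB3 was at 198 and 216 FPKM (1.09, 0.993 to 1.2) and PSMB1 at 106 in both (1.0, 0.889 to 1.13). PSMB2 was at 23.9 and 26.8 FPKM (ratio 1.12, 1.01 to 1.23). All 4 had log2 ratios above 0 in FPKM, with a median of 0.09, but those of PSMB1 and PSMB4 turned below 0 when depth-scaled fragments were used.

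**Figure D4:**
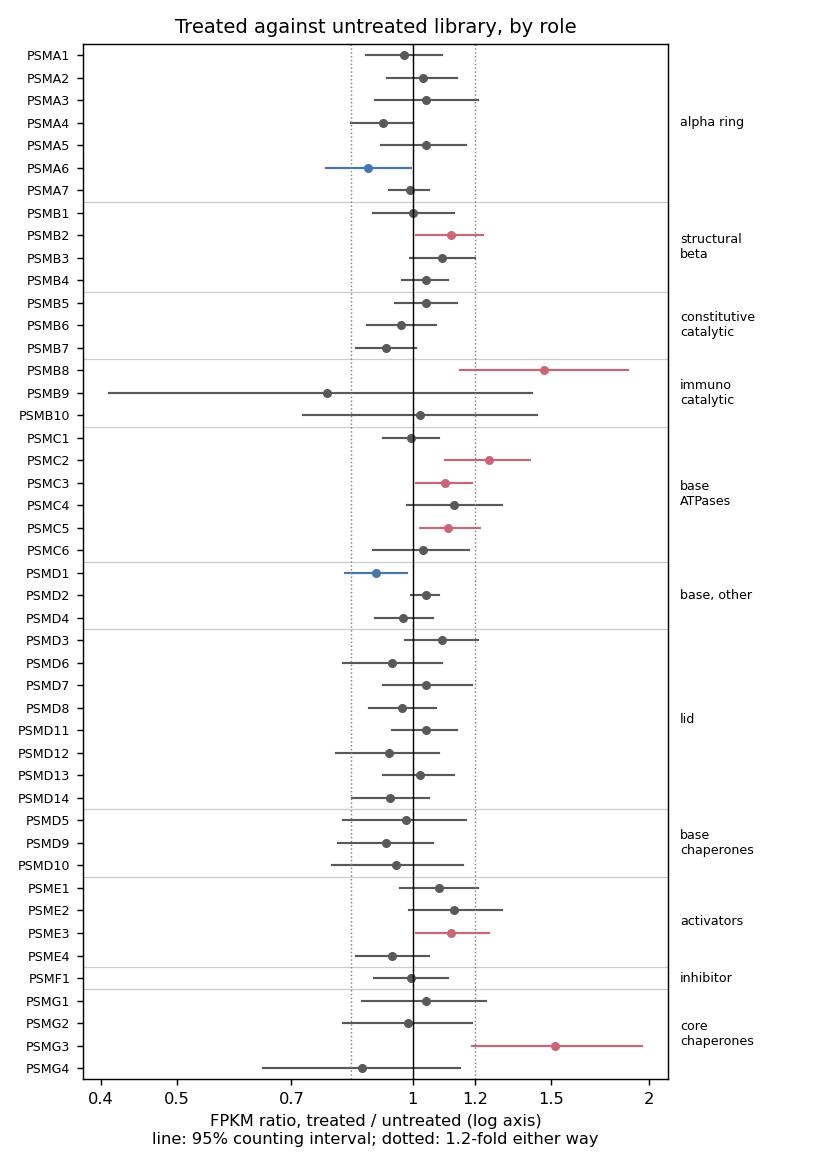
FPKM ratio of treated over untreated (horizontal log axis) for each of the 46 proteasome genes, with its 95% counting interval as a line and 1.2-fold either way as dotted lines. The 7 red intervals lie above 1, the 2 blue ones (PSMA6 and PSMD1) lie below 1, and 3 of the red ones are base ATPases.

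The ATPases of the base, which unfold the substrate and push it into the core, had the highest median log2 ratio of the roles in the regulatory particle. PSMC2, on chromosome 7 at 103347524 to 103369395, was at 24.7 and 30.8 FPKM, resting on 443 and 584 fragments, and its ratio was 1.25 (1.10 to 1.41). PSMC5 was at 108 and 121 FPKM (1.11, 1.02 to 1.22) and PSMC3 at 117 and 128 FPKM (1.10, 1.01 to 1.19). PSMC4 was at 32.0 and 36.1 FPKM, a ratio of 1.13 whose interval of 0.983 to 1.30 included 1. PSMC6 was at 38.5 and 39.6 FPKM (1.03, 0.889 to 1.18) and PSMC1 at 111 in both (0.996, 0.916 to 1.08). Of the 6 ATPases 5 lay above 0, with a median log2 ratio of 0.14, and PSMC1 also moved above 0 under upper-quartile scaling. No test was made of whether the ATPases differ from the other members. The ATPases occur once each in a ring of 6, and their FPKM spanned 4.72-fold untreated and 4.16-fold treated. Annotation names 13 pseudogene records after PSMC1 and none after PSMC2, PSMC3 or PSMC5.

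Of the other base subunits 1 lay above 0 and 2 below. PSMD2, a scaffold that docks ubiquitin shuttles, had the most fragments of any member, 4122 and 4600, and was at 215 and 223 FPKM (ratio 1.04, 0.994 to 1.08). PSMD1, its partner scaffold, was at 45.5 and 40.8 FPKM (ratio 0.898, 0.820 to 0.983), the other interval below 1. PSMD4, a ubiquitin receptor, was at 144 and 139.7 FPKM (0.972, 0.895 to 1.06).

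The 8 lid subunits, which form a horseshoe beside the base, were close to each other in level and between libraries. They ran from 31.9 to 89.7 FPKM untreated, a span of 2.81-fold, and from 29.7 to 87.0 treated. PSMD14, the deubiquitinase that removes the ubiquitin chain as the substrate enters, was at 59.9 and 56.0 FPKM (0.936, 0.836 to 1.05), and PSMD7, its inactive partner, at 45.2 and 47.2 FPKM (1.04, 0.917 to 1.19). The scaffold subunits were PSMD8 at 89.7 and 87.0 FPKM, PSMD13 at 63.5 and 64.6, PSMD3 at 46 and 50.1, PSMD6 at 43.4 and 40.8, PSMD11 at 32.1 and 33.3, and PSMD12 at 31.9 and 29.7. All 8 counting intervals included 1, with 4 log2 ratios above 0, 4 below and a median of -0.01. The sign of PSMD13 turned with depth-scaled fragments and that of PSMD6 with its most abundant transcript alone.

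The chaperones that assemble the base, PSMD5, PSMD9 and PSMD10, do not stay in the finished particle and were below the median member in both libraries. PSMD9 was at 27.5 and 25.4 FPKM (ratio 0.924, 0.803 to 1.06), PSMD10, also known as gankyrin, at 23.1 and 22.0 (0.953, 0.788 to 1.16), and PSMD5 at 10.5 and 10.3 (0.979, 0.815 to 1.17). All 3 intervals included 1. The log2 ratios were below 0 for all 3, with a median of -0.07, but that of PSMD10 was 0.07 when only its most abundant transcript was used.

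Among the chaperones that assemble the core, PSMG3 had the largest ratio of all members. PSMG3 pairs with PSMG4 to help build the alpha ring and lies on chromosome 7 at 1567334 to 1570032. Its level was 20.9 FPKM untreated and 31.9 FPKM treated, resting on 109 and 167 fragments, with a ratio of 1.52 (1.19 to 1.96). PSMG4, its partner in the heterodimer, was at 22.7 and 19.6 FPKM, with 103 and 92 fragments and a ratio of 0.862 (0.644 to 1.15). The partners therefore lay on opposite sides of 1, and their intervals did not overlap. Of the PSMG3 transcripts, that of 778 bases was at 15.5 FPKM (authors' bounds 10.9 to 20.1) and 25.3 FPKM (19.9 to 30.7), and that of 1387 bases at 5.37 (3.44 to 7.30) and 6.56 FPKM (4.48 to 8.65). The authors' bounds overlapped for both, narrowly for the former, between 19.9 and 20.1, and widely for the latter. The other pair of core chaperones, PSMG1 and PSMG2, which join alpha subunits in a heterodimer of their own, were at 35.0 and 36.3 FPKM (1.04, 0.860 to 1.24) and at 34.5 and 34 FPKM (0.987, 0.815 to 1.19).

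Single member transcripts that stood apart between the libraries were counted beside the background. There were 66 member transcripts with a mean of at least 1 FPKM. The authors' bounds did not overlap between libraries for 3 that were higher (4.55%) and 2 that were lower (3.03%) in the treated library. Over 16888 such transcripts of all genes the shares were 6.79% and 6.57%, and at counts this small the difference was not tested. The 5 member transcripts belonged to PSMB8, PSMB5 and PSMC5. For PSMC5 the main transcript was at 96.5 FPKM (88.2 to 105) and then 116 FPKM (107 to 125), while a longer one, of 1495 bases, was at 12 (8.95 to 15.0) and then 4.81 (2.91 to 6.70). For PSMB5 the main transcript was at 107 and 105 FPKM, a transcript of 941 bases was at 6.38 (3.23 to 9.53) and then 16.2 (11.4 to 21), and one of 1379 bases was at 2.98 (1.39 to 4.58) and then 0.223 (0 to 0.680). The PSMB5 gene sum thus stayed within 1.04-fold while its 941-base form was 5.48% of it untreated and 13.4% treated. These bounds rest on how fragments were divided among overlapping transcripts. PSMC5 exons share 105 bases with FTSJ3 on the other strand, at 15.2 and 15.5 FPKM.

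**Figure D5:**
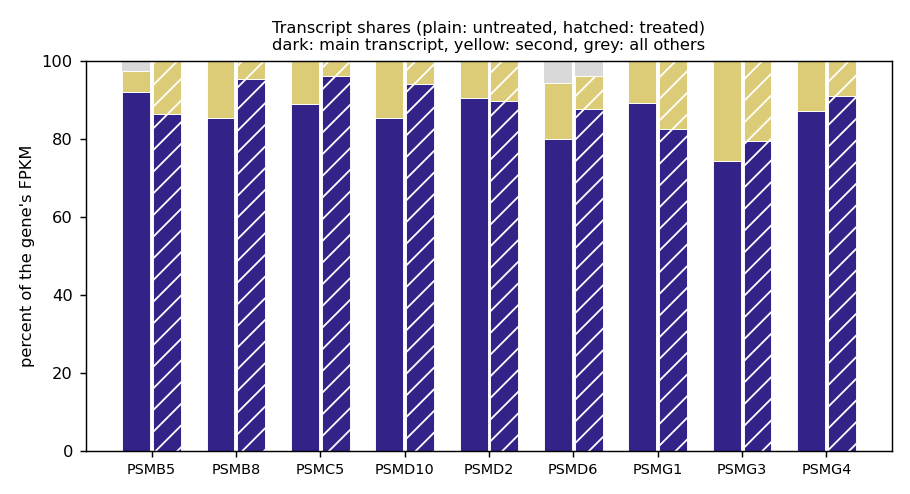
Percent of each gene's FPKM (vertical axis, from 0 to 100) held by its main transcript (dark), its second (yellow) and all others (grey), in the untreated (plain) and treated (hatched) library, for the 9 members with a second transcript at 10% or more in a library. The main transcript of PSMB8 is at 85.4% and 95.3%, that of PSMC5 at 88.9% and 96.0%, and that of PSMB5 at 92.0% and 86.5%.

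Levels of members also went with transcript length. The 12 members whose main transcript has at least 2000 bases had a median of 27.1 FPKM untreated and 28.8 treated, and the 34 shorter ones 83.2 and 79.1. PSMA5, whose main transcript has 3826 bases, and PSMB2, with 4744 bases, were the lowest of the alpha and of the structural beta subunits. Spearman's rho of FPKM on length was -0.36 and -0.39 over the 46 members, against -0.23 in both libraries over all genes. The same correlation with fragments in place of FPKM was 0.15 and 0.16 over the members. These points share their libraries and the length by which FPKM is divided.

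The regulators and partners of the proteasome also centred near 0. Of 39 names listed, 35 were over the floor, with 23 above 0, 12 below and a median log2 ratio of 0.02, and 1 was 1.2-fold higher and 0 lower. That gene was PAAF1, which binds the base ATPases during assembly, at 14.0 and 17.8 FPKM (ratio 1.27, 1.01 to 1.59). UCHL5, a deubiquitinase of the regulatory particle, was at 27.9 and 24.0 FPKM (0.860, 0.75 to 0.983), and ADRM1, the ubiquitin receptor that holds it, at 119.9 and 126 (1.05, 0.966 to 1.14). POMP, the maturation factor of the core, was at 53.4 and 51.3 FPKM (0.962, 0.845 to 1.09). NFE2L1, the transcription factor that restores proteasome genes when the protease is inhibited, was at 40.1 and 42.4 FPKM (1.06, 0.979 to 1.14). SHFM1, the small lid subunit that lies outside the naming rule, was at 212 and 193 FPKM (0.912, 0.8 to 1.04). UBQLN2, a shuttle for ubiquitin-tagged proteins, was at 13.8 and 12.1 FPKM, LNPEP, an aminopeptidase, at 2.98 and 3.72, and NGLY1, which removes glycans from misfolded proteins, at 9.40 and 10.5.

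Genes that work with the immunoproteasome in antigen presentation were set beside it. Of 22 names 18 were over the floor, 12 above 0 and 6 below, with a median log2 ratio of 0.05, 1 at least 1.2-fold higher (ERAP2) and 0 lower. TAP1, a subunit of the peptide transporter and a neighbour of PSMB8 and PSMB9 on chromosome 6, was at 19.7 and 23.1 FPKM (ratio 1.18, 1.02 to 1.35). ERAP2, which trims peptides in the endoplasmic reticulum, was at 5.84 and 7.77 FPKM (1.33, 1.11 to 1.60). IRF1, an interferon regulatory factor, was at 5.62 and 4.75 FPKM (0.845, 0.653 to 1.10). Of the immunoproteasome genes PSMB8 had an interval above 1, as TAP1, ERAP2 and HLA-B did, and PSMB9, PSMB10, PSME1 and PSME2 had intervals that included 1.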

How the data were processed

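RNA of 2 CHME3 cultures was analysed, 1 library per condition, grouped by the treatment label. Alignment and quantification used TopHat, Cuffdiff and the build hg38, per the submitters' processing notes. Versions are not given in the sources used here, and the lines of the deposited files name Cufflinks as their source. The values the authors deposited are FPKM per RefSeq transcript, other than plain counts, with lower and upper bounds, and the deposited score was not used.

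FPKM was summed per gene name, and log2((treated + 1)/(untreated + 1)) was computed where the mean reached 1 FPKM. Fragment numbers were estimated from the bounds, and are not counts: in genes with a single transcript and 3 or more fragments, they were whole (tolerance 0.01) for 21.1% of 5931 values in the untreated library and 21.3% of 5992 in the treated one. Intervals of a ratio or percentage are 95% exact conditional binomial (Clopper-Pearson) intervals on rounded fragments and cover counting error only, not isoform assignment or PCR duplicates. For PSMA8 and PSMB11, at 0 in both libraries, 3 fragments would be 0.271 and 0.258 FPKM untreated and 0.253 and 0.241 treated.

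Size rules of 1.2-, 1.5- and 2-fold carry no test. All members are named by role, with the 6 largest log2 ratios of the list of regulators and partners and any gene whose role bears on a member; genes that are withheld are not reported here. Genes named from the antigen presentation list, and the transcripts with bounds apart, were picked with their values known, and the members and lists were chosen with earlier results of these data known. Transcript shares are for members with at least 2 transcripts at 10% or more in a library. Pseudogenes were looked up in GENCODE by name. The scripts were tested on simulated data. Python 3.11.15, numpy 2.4.6, pandas 2.3.3, scipy 1.17.1 and matplotlib 3.10.9 were used.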

Additional observations from a re-analysis of the deposited data

How the results depend on the processing

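The median log2 ratio of the members ran from -0.02 with depth-scaled fragments to 0.04 with the most abundant transcript or upper-quartile scaling, and that of the 5 immunoproteasome and activator genes from 0.06 with depth-scaled fragments to 0.14 with a floor of 5 FPKM. The count of members at least 1.2-fold apart was 4, and ran from 3 with a pseudocount or a floor of 5 to 5 with depth-scaled fragments. It was 1 at 1.5-fold, 0 at 2-fold and 2 (PSMB8 and PSMC5) where the authors' bounds had to lie apart. Over 9 alternatives all 414 values of single members stayed within their counting intervals. Some alternatives could hardly move a value. The records of PSMB3, PSMB8 and PSMB9 on alternate chromosome forms were all at 0, and median centring shifted log2 ratios by 0.003. The median log2 ratio over all genes was -0.016 with depth-scaled fragments and 0.014 with upper-quartile scaling. Under at least 1 alternative, 11 members changed sign. Under a scaling these were 7: PSMB1, PSMB4, PSMB5, PSMB10 and PSMD13 with depth-scaled fragments, and PSMC1 and PSMF1 with upper-quartile scaling. With the most abundant transcript only they were 5: PSMB5 (-0.03), PSMD6 (0.04), PSMD10 (0.07), PSMG1 (-0.06) and PSMG2 (0.04). Without the members that have a pseudogene record, an alternative chosen after seeing the data, the median was 0.03 and the count 4. No library could be left out, since each condition has 1. No paired analysis was possible because each condition has 1 library. Depth limits PSMB9 most, with 46 fragments in all.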
